A study of Arabidopsis thaliana with 18 samples.

Results

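The core cell cycle machinery of Arabidopsis thaliana was followed in seeds through 37 of the 33602 genes measured. They were listed by locus identifier, with earlier results of these data known. The 37 genes are 10 D-type cyclins (CYCD), 2 CYCA3, 4 CYCA2 and 1 CYCA1 cyclin, 8 B-type cyclins (CYCB), the cyclin dependent kinases CDKA;1 and 4 CDKB, and the 7 inhibitors KRP1 to KRP7. All 37 were found in the RefSeq TAIR10.1 annotation as protein-coding genes. RNA was sequenced from seeds of 2 complemented genotypes, ΔDS, whose complementing copy lacks the DS segment, and +WT, whose copy is intact. From knowledge of the study the complementing gene is FLOE1, whose protein condenses in the embryo as seeds take up water. Seeds of both genotypes were taken dry, after imbibition without salt and after imbibition with 220 mM NaCl, which gives 6 groups of 3 replicates, or 18 samples. The imbibed and salt seeds spent 5 days at 4 °C in darkness and then 4 hours in light at 22 °C. Both genotypes are called complemented in the labels, which give neither the line that received the copies nor whether each genotype is 1 transformed line. Whether the replicates are seed lots of different mother plants is likewise not stated. The p-values therefore measure the spread between these samples, and the deletion, the line, the insertion and the level of the complementing transcript cannot be told apart. The extraction protocol names siliques beside seeds, without saying which samples held them.

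As background, a plant cell divides when cyclins bind and activate cyclin dependent kinases. D-type cyclins with CDKA;1 drive the passage out of G1 by acting on the retinoblastoma protein RBR1, CYCA3 cyclins act around the start of S phase, CYCA2 cyclins from S phase to mitosis, and CYCB and CYCA1 cyclins with CDKB kinases at the entry into mitosis. KRP proteins bind and inhibit cyclin–CDK complexes. In a mature seed the embryo is arrested, and cell division resumes in the root tip around the time the radicle emerges.

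For each seed state the authors compared ΔDS with +WT seeds in DESeq2, and their log2 fold changes with standard errors (SE) and adjusted p are used here. A gene is called changed where that adjusted p was under 0.05, and counted as tested where the authors' table gives one. A value above 0 was taken to mean a higher level in ΔDS, because ΔDS is named first in the titles. The tables hold no value per library, so neither the replicates of a group nor their overlap can be shown. Group means named below as implied were computed from each table's mean and fold change. Levels per kb are implied means in CPM of the table's sum, divided by kilobases of exon. The authors' mean normalised counts summed to 26367661 (dry), 24526188 (imbibed) and 26080227 (salt), and at a mean of 10 to 50 counts, where many of the 37 genes lie, the median SE of a log2 fold change in the authors' deposited tables was 0.441, 0.496 and 0.48. The targeted gene FLOE1 was lower in ΔDS in every state, with log2 fold changes of -5.53 ± 0.0896, -5.58 ± 0.16 and -5.00 ± 0.0665 (SE) in the authors' deposited tables for dry, imbibed and salt seeds. Transcripts of seed storage proteins marked the tissue. The 10 genes of that list summed to a level of 38600.1 per kb in dry ΔDS seeds against 53254 in dry +WT seeds, to 26158 against 65661 in imbibed seeds and to 55318 against 74851 in salt seeds.

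Promoters of many mitotic genes, B-type cyclins among them, carry the MSA element, bound by MYB3R factors in mitotic gene control. Its core, AACGG, was searched on both strands of the 250 bases before each annotated gene start in TAIR10.1. It was present in 20.6% of 27443 gene promoters and in 15 of the 37 genes. Among the B-type cyclins 6 of 8 held it, and among the KRP genes 4 of 7, against 1 of 10 D-type cyclins. CYCB1;1 had the largest fold change in imbibed seeds among those of the 37 genes that were tested. Its window is shown beside that of CYCB2;3, the other B-type cyclin abundant enough to be tested, and that of KRP1, which held the most matches. The windows lie at chr4:17624309-17624558, chr1:7137829-7138078 and chr2:9978091-9978340, all on the minus strand, and are written 5′ to 3′ towards the gene, with matches to the core in capitals.
CYCB1;1: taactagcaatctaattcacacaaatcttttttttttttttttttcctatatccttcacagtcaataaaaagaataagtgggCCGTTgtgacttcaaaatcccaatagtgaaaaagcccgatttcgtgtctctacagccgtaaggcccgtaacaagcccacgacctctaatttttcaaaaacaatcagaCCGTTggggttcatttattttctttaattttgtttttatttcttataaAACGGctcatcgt
CYCB2;3: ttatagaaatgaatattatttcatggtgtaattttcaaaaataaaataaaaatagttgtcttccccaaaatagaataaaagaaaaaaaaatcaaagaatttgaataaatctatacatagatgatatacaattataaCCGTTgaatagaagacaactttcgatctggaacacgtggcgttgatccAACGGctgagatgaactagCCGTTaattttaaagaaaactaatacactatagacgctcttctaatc
KRP1: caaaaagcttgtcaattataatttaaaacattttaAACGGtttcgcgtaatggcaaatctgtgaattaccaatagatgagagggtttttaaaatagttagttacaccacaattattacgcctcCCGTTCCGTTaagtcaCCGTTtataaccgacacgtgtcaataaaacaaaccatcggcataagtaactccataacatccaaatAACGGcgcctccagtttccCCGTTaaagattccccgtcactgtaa
CYCB1;1 and CYCB2;3 thus hold 3 cores each, and KRP1 holds 6. In CYCB1;1 they begin 168, 61 and 13 bases before the start, and in CYCB2;3 114, 66 and 47 bases before it. Sites for 2 further regulators were searched in the same way. An E2F site (TTTCCCGC, TTTGGCGC, TTTCGCGC or TTTGCCGC) was in 1.41% of all promoters and in CYCD3;3 alone among the 37 genes. The palindrome of SOG1, the plant DNA damage transcription factor, was searched as CTT and AAG with 6 free bases between them, found in 7.56% of promoters and in 3 of the 37. With 7 free bases, a spacing added after the data were seen, it was in 9.71% and in 6 of the 37. Neither spacing matched within these 250 bases of CYCB1;1. A match is a description of these letters, and no match says nothing about binding.

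In dry seeds none of the 37 genes passed the test. Of the 21 with an adjusted p in the authors' deposited DESeq2 table, 0 passed the threshold and 0 had an unadjusted p under 0.05, against 6.06% called of all 16597 genes tested (2.96% higher and 3.10% lower). The 21 log2 fold changes in the authors' deposited table ran between -0.74 for KRP2 and 0.68 for CYCA2;2. In dry seeds the inhibitor transcripts summed to a higher level than the D-type or the B-type cyclin transcripts. Most of that sum came from KRP4 and KRP6, and gene by gene the order did not hold. The highest D-type cyclin stood at 4.60 per kb in dry ΔDS seeds and 3.95 in dry +WT seeds. KRP7 was below it, at 2.54 and 2.85, and KRP1, KRP2 and KRP3 were lower still. KRP4 stood at 19.2 per kb in ΔDS and 20.9 in +WT seeds, KRP6 at 18.5 and 18.0, and CDKA;1 at 9.50 and 9.12. The 7 KRP genes summed to 47.7 per kb in ΔDS and 49.8 in +WT dry seeds, the 10 D-type cyclins to 12.9 and 11.9, and the 8 B-type cyclins to 0.835 and 0.772.

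In imbibed seeds 10 of the 37 genes were higher in ΔDS and 0 were lower, among 29 tested, which is 34.5% called. Over all genes tested in that state 40.8% were called, 21.3% higher and 19.5% lower, so the share called lies below that of all genes and the share called higher lies above that of all genes. The median log2 fold change of the 29 genes was 0.50 in the authors' deposited table, against 0.02 for all genes tested. The genes called were 1 B-type and 1 CYCA2 cyclin, 5 D-type cyclins and 3 inhibitors. In salt seeds 2 genes were higher, CYCB1;1 and KRP6, and 0 were lower, among 28 tested (7.14%). Of all genes tested in salt seeds 14.0% were called, 6.98% higher and 6.99% lower, so the share of the 37 lies below the background there and the share called higher is close to it. Over the 3 states 11 of the 37 genes were called at least once, 1 was called in 2 states, and 26 were called in none, of which 8 had no adjusted p in any state. The libraries are of bulk RNA, in which more cells of a type and more RNA per cell cannot be told apart.

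**Figure D1:**
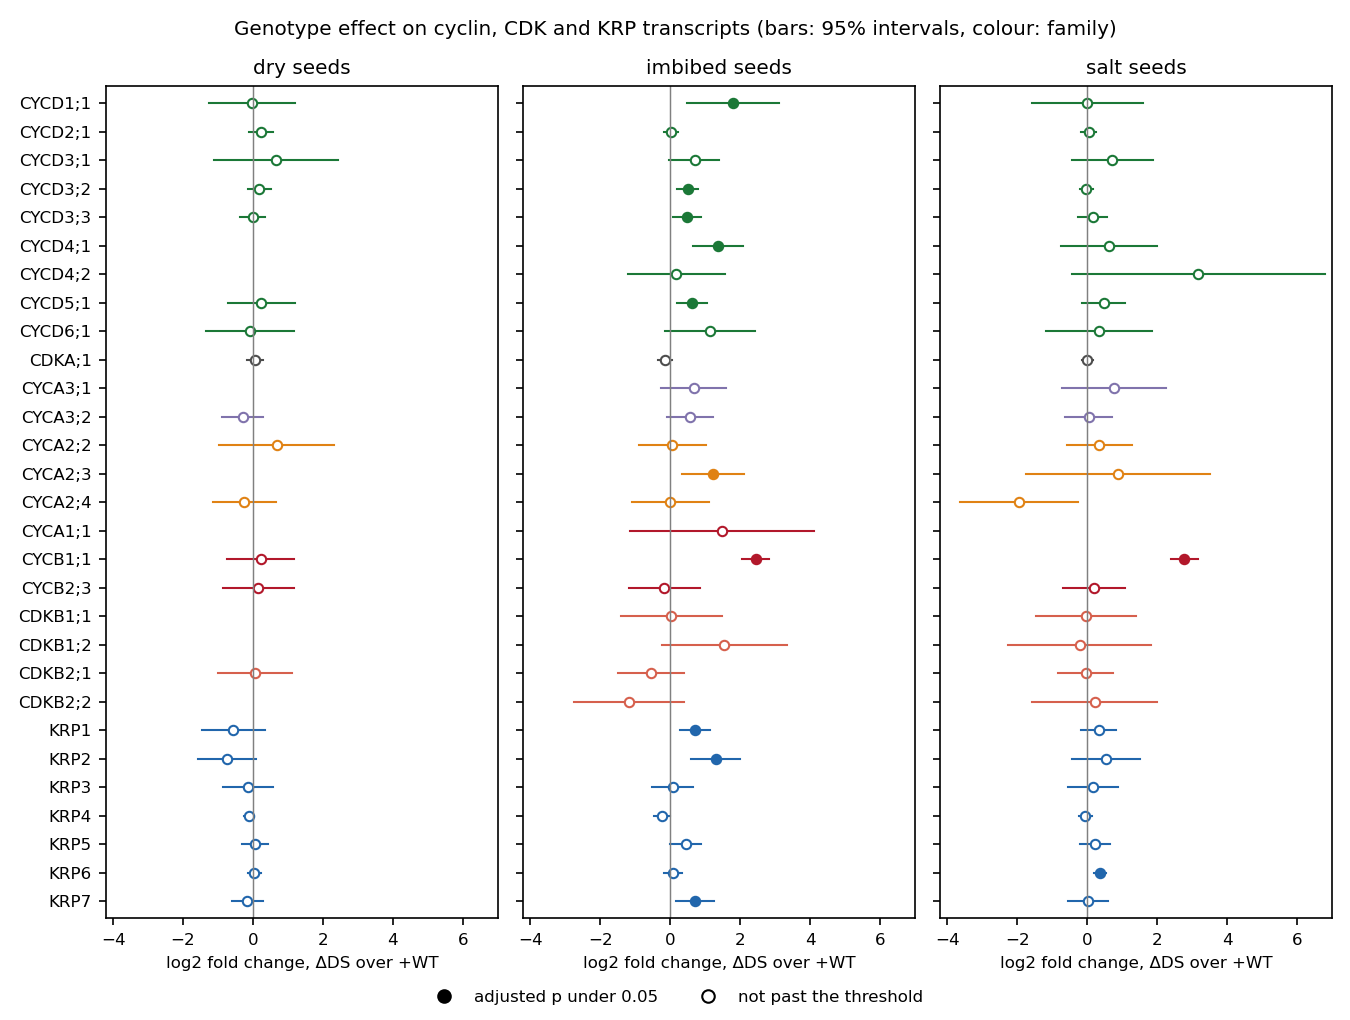
Log2 fold change of ΔDS over +WT for the 29 genes tested in at least 1 state, in dry, imbibed and salt seeds, with 95% intervals from the authors' SE. Colour marks the family and filled points have an adjusted p under 0.05. No point is filled in dry seeds, 10 are filled in imbibed seeds, all to the right of 0, and in salt seeds CYCB1;1 and KRP6 are filled.

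The D-type cyclins, which act in G1, held 5 of the 10 calls in imbibed seeds, all of them higher. That is 55.6% of the 9 tested, beside 40.8% called and 21.3% called higher of all genes tested. All 9 had a positive log2 fold change there, as did 9958 of all 19430 genes tested. Values of the 9 ran from 0.03 to 1.80, with 0.62 as the median, in the authors' deposited table. CYCD3;2 (AT5G67260), a cyclin that keeps shoot cells dividing, had the highest level of the genes called. Its implied mean was 1169 normalised counts in imbibed ΔDS seeds against 824 in imbibed +WT seeds, or 28.3 against 20.0 per kb. The log2 fold change was 0.50 ± 0.15 (SE, adjusted p = 0.00356, DESeq2) in the authors' deposited table. In salt seeds the same gene stood at 554 counts in ΔDS and 562 in +WT, a log2 fold change of -0.02 ± 0.0986 (SE) in the authors' deposited table, whose sign turns with another scaling. Its genotype effect in salt seeds minus that in imbibed seeds was -0.52 ± 0.18 (SE, adjusted p = 0.0433, approximate z test). It was the 1 gene of 28 called for this difference (3.57%), where 9.16% of all genes were called, 5.85% positive and 3.31% negative.

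CYCD4;1 (AT5G65420) and CYCD1;1 (AT1G70210) are D-type cyclins active early in the germinating root. The first of them, CYCD4;1, had 52.5 implied counts in imbibed ΔDS seeds and 20.3 in imbibed +WT seeds, with a log2 fold change of 1.37 ± 0.37 (SE, adjusted p = 0.00112, DESeq2) in the authors' deposited table. CYCD1;1 had 38.2 counts in imbibed ΔDS and 11 in imbibed +WT seeds, with 1.80 ± 0.67 (SE, adjusted p = 0.0209, DESeq2) in the authors' deposited table. Outside this state neither passed, which does not show a difference between states. For CYCD1;1 the difference in genotype effect had an adjusted p of 0.129 for imbibed against dry seeds (approximate z test). For salt against imbibed seeds the adjusted p was 0.28 for CYCD1;1 and 0.605 for CYCD4;1 (approximate z test). In dry seeds CYCD4;1 had no adjusted p, at 0.598 counts in ΔDS and 4.48 in +WT, and CYCD1;1 stood at 10.7 in ΔDS and 10.9 in +WT. In salt seeds the pair had 12.1 and 7.43 counts in ΔDS and 7.87 and 7.39 in +WT.

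CYCD5;1 (AT4G37630), a cyclin linked to the onset of endoreduplication, and CYCD3;3 (AT3G50070), a close relative of CYCD3;2, changed less. For CYCD5;1 there were 163 implied counts in imbibed ΔDS seeds and 106 in imbibed +WT seeds, a log2 fold change of 0.62 ± 0.22 (SE, adjusted p = 0.0149, DESeq2) in the authors' deposited table. CYCD3;3 had 275 counts in imbibed ΔDS and 196 in imbibed +WT seeds, with 0.48 ± 0.20 (SE, adjusted p = 0.0432, DESeq2) in the authors' deposited table. Its call ended when the fold changes were centred on the median gene, at an adjusted p of 0.0519, and when a trend over transcript length was removed, at 0.0505. In salt seeds CYCD5;1 had 61.4 implied counts in ΔDS and 44.4 in +WT and CYCD3;3 had 114 and 102, and in dry seeds they had 21.1 and 137 in ΔDS and 17.8 and 138 in +WT, none past the threshold. The genotype effect was not called different between salt and imbibed seeds for CYCD5;1 (adjusted p = 0.849) or CYCD3;3 (adjusted p = 0.521, approximate z test). Nor was it between imbibed and dry seeds, at adjusted p of 0.659 and 0.178 (approximate z test). The E2F site named above lies in the promoter window of CYCD3;3. Of the D-type and CYCA2 cyclins called, CYCD1;1, CYCD3;2 and CYCA2;3 share 144, 103 and 48 exon bases with a gene on the opposite strand, and those neighbours had means of at most 3.97 counts in any table.

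The other 4 tested D-type cyclins did not pass in imbibed seeds. CYCD2;1, a sugar-responsive cyclin, was among the 5 highest of the 37 genes per kb and stood at 23.8 per kb in imbibed ΔDS and 23.3 in imbibed +WT seeds. Its log2 fold change of 0.03 ± 0.10 (SE) in the authors' deposited table has a 95% interval of -0.17 to 0.23. CYCD3;1 was at 0.70 ± 0.36, CYCD6;1, a cyclin of formative ground tissue divisions, at 1.13 ± 0.66 and CYCD4;2 at 0.18 ± 0.71 (log2 fold change ± SE) in the authors' deposited table. CYCD6;1 shares 393 exon bases with a gene on the opposite strand whose mean was 2442.7 counts in imbibed seeds, against 19.3 for CYCD6;1. Strand handling was not given in the sources used here, and without strand reads from the pair cannot be told apart. CYCD3;1 shares 40 exon bases with a gene on the same strand whose mean was 504.51 counts in imbibed seeds, against 42.0 for CYCD3;1, and its reads there are likewise uncertain. CYCD7;1, known from the guard cell lineage, had a mean of 0.536 counts in dry seeds and was listed at 0 in the other states. In salt seeds 0 of 9 tested D-type cyclins passed the authors' DESeq2 threshold and 0 had an unadjusted p under 0.05. CYCD4;2 had the largest fold change of them, 3.17 ± 1.84 (log2, SE, adjusted p = 0.292, DESeq2) in the authors' deposited table, at an implied 3.54 counts in ΔDS and 0.392 in +WT.

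CDKA;1 (AT3G48750), the main cell cycle kinase and the partner of the D-type cyclins, had the highest level per kb of the 37 genes in imbibed seeds. It stood at 28.9 per kb in imbibed ΔDS seeds and 32.1 in imbibed +WT seeds, and at 26.6 and 26.5 in salt seeds. Its log2 fold change was 0.06 ± 0.12 (SE) dry, -0.15 ± 0.10 imbibed and 0.01 ± 0.0778 with salt in the authors' deposited tables, with 95% intervals of -0.18 to 0.30, -0.35 to 0.05 and -0.15 to 0.16. The imbibed sign turns with another scaling.

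**Figure D2:**
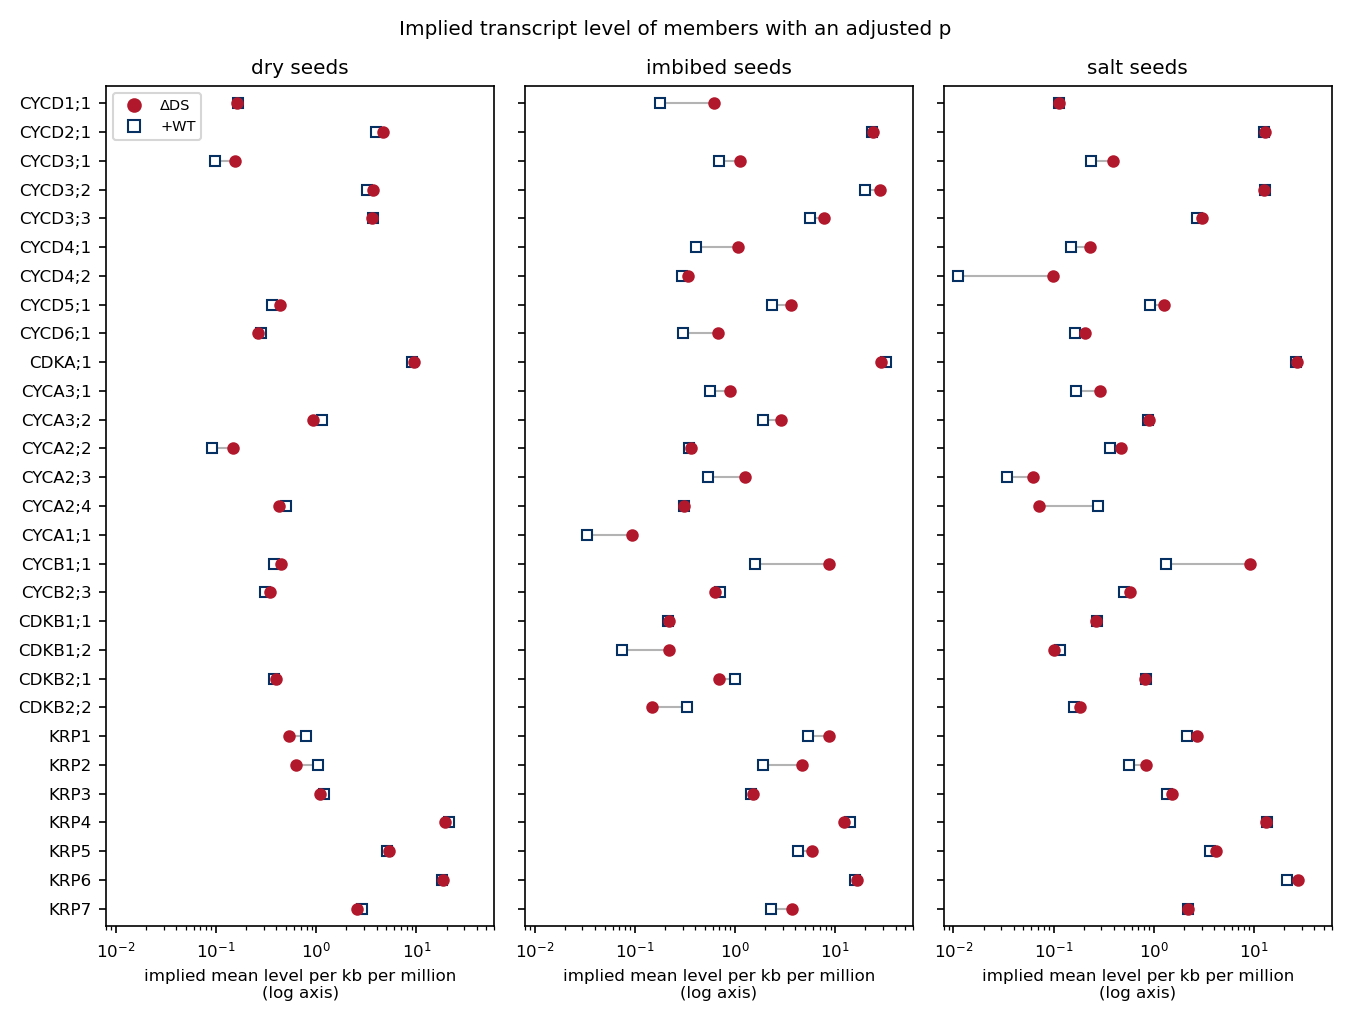
Implied mean level per kb of exon (CPM per kb), on a log axis, of the 29 tested genes in dry, imbibed and salt seeds. Circles are ΔDS and squares +WT, and only states with an adjusted p are drawn. CYCB1;1 shows a wide gap in imbibed (8.61 and 1.58) and salt seeds (9.09 and 1.32), while CDKA;1 and CYCD2;1 have nearly overlapping points.

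The CYCA3 cyclins, which act around the start of S phase, passed the authors' DESeq2 threshold in no state, and 0 of 1, 0 of 2 and 0 of 2 tested had an unadjusted p under 0.05 in dry, imbibed and salt seeds. CYCA3;2 had 126 implied counts in imbibed ΔDS seeds and 84.6 in imbibed +WT seeds, and CYCA3;1 had 34.8 and 21.8. Their log2 fold changes of 0.57 ± 0.34 (adjusted p = 0.165) and 0.67 ± 0.47 (SE, adjusted p = 0.251) in the authors' deposited DESeq2 table have 95% intervals of -0.09 to 1.23 and -0.25 to 1.60, which reach past the effects called for CYCD3;2 and CYCD5;1. In dry seeds CYCA3;2 stood at 44.0 counts in ΔDS and 54.2 in +WT, and in salt seeds at 41.8 and 40.7. Of the CYCA2 cyclins, CYCA2;3 (AT1G15570), which restrains endoreduplication, was higher in imbibed ΔDS seeds. It had 62.7 implied counts there against 26.8 in imbibed +WT seeds, a log2 fold change of 1.23 ± 0.45 (SE, adjusted p = 0.0205, DESeq2) in the authors' deposited table. The same gene had a mean of 0.19 normalised counts in dry seeds and 2.55 in salt seeds. CYCA2;2 and CYCA2;4 had log2 fold changes of 0.06 ± 0.49 and 0.00 ± 0.56 (SE) in imbibed seeds in the authors' deposited table. In salt seeds CYCA2;4 had the lowest value of the 28 tested genes, -1.95 ± 0.86 (log2, SE, adjusted p = 0.123, DESeq2) in the authors' deposited table, from an implied 3.41 counts in ΔDS and 13.2 in +WT. CYCA2;1 had means under 1 count in every state.

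Among the mitotic genes CYCB1;1 was the 1 called. The gene (AT4G37490, chr4:17621886-17624308, minus strand) encodes a cyclin of the G2 to M transition that is also known to be induced by DNA damage. It had an implied 344 counts in imbibed ΔDS seeds against 63.2 in imbibed +WT seeds and 386 in salt ΔDS seeds against 56.1 in salt +WT seeds, and 19.1 and 16.4 in dry ΔDS and dry +WT seeds. In the authors' deposited tables the adjusted p was 8.36e-33 in imbibed and 3.00e-42 in salt seeds (DESeq2), at 5.45-fold and 6.89-fold, and 0.902 in dry seeds at a log2 fold change of 0.22 ± 0.49 (SE). The genotype effect exceeded that of dry seeds by 2.23 ± 0.53 in imbibed seeds (SE, adjusted p = 4.91e-04, approximate z test) and by 2.56 ± 0.53 in salt seeds (SE, adjusted p = 1.07e-04, approximate z test). It was 1 of 2 genes among 21 called for the difference between imbibed and dry seeds (9.52%), where 25.0% of all genes were called, 8.49% positive and 16.5% negative. For salt against dry seeds it was the 1 called of 21 (4.76%), where 5.83% of all genes were called, 1.64% positive and 4.19% negative. Between salt and imbibed seeds the difference was 0.34 ± 0.28 (SE, adjusted p = 0.48, approximate z test), with a 95% interval of -0.21 to 0.88. From dry to imbibed seeds the level per kb was 19.4 times as high in ΔDS and 4.14 times as high in +WT, and from dry to salt seeds 20.4 and 3.46 times, values set across tables that were normalised separately. The gene shares no 31-base stretch with another annotated transcript and no exon base with a neighbour.

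The other mitotic genes were not called. Without CYCB1;1, 0 of 2 (dry), 0 of 6 (imbibed) and 0 of 5 (salt) passed the authors' DESeq2 threshold, 0 had an unadjusted p under 0.05 in each state, and the median log2 fold change in the authors' deposited tables was 0.11, -0.06 and -0.03. CYCB2;3, the other tested B-type cyclin, had 31.4 implied counts in imbibed ΔDS seeds against 35.1 in imbibed +WT seeds, and 30.2 against 26.4 in salt seeds. Its log2 fold change was -0.16 ± 0.51 in imbibed and 0.19 ± 0.46 in salt seeds (SE) in the authors' deposited tables. The 95% intervals of -1.16 to 0.85 and -0.70 to 1.09 given by these errors lie below those of CYCB1;1, which run from 2.06 to 2.83 and from 2.40 to 3.17. The imbibed sign of CYCB2;3 turns with another scaling, and 19.4% of its 31-base stretches recur in a neighbouring gene. The remaining 6 B-type cyclins had at most 2.05 mean counts in any table, and of these genes 2 were listed at 0 in the dry state, 2 in the imbibed and 2 in the salt state. They are CYCB1;2, CYCB1;3, CYCB1;4, CYCB2;1, CYCB2;2 and CYCB2;4.

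The CDKB kinases, which act from G2 to mitosis, had low counts, and 0 of 1, 0 of 4 and 0 of 4 passed the authors' DESeq2 threshold or an unadjusted p of 0.05 in dry, imbibed and salt seeds. CDKB2;1 had 23.2 implied counts in imbibed ΔDS seeds and 33.8 in imbibed +WT seeds, a log2 fold change of -0.54 ± 0.49 (SE, adjusted p = 0.386, DESeq2) in the authors' deposited table. CDKB1;1, CDKB1;2 and CDKB2;2 had means of 7.31, 5.49 and 8.28 counts in the imbibed table, with log2 fold changes of 0.04 ± 0.74, 1.55 ± 0.91 and -1.17 ± 0.81 (SE) in the authors' deposited table. CDKB1;2 shares 281 exon bases and CDKB1;1 shares 71 with a gene on the opposite strand, and those neighbours had means of 358.2 and 1360.15 counts in imbibed seeds. Reads of the overlaps cannot be told apart without strand. CYCA1;1 had 4.21 implied counts in imbibed ΔDS and 1.51 in imbibed +WT seeds, at 1.49 ± 1.34 (log2, SE) in the authors' deposited table.

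**Figure D3:**
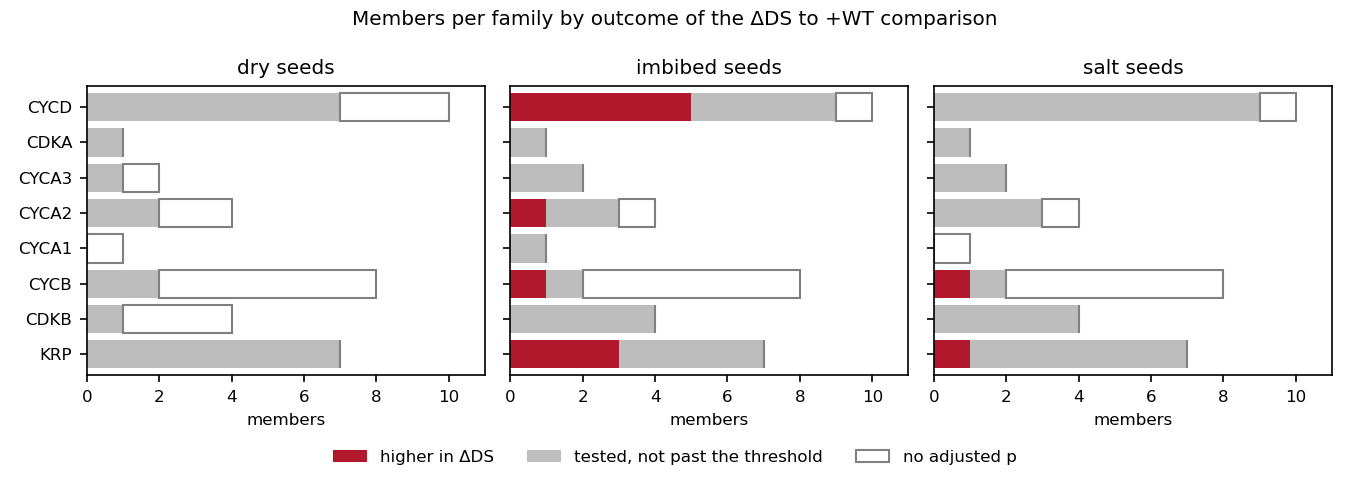
Number of genes of each family that were higher in ΔDS (red), tested without passing (grey) or without an adjusted p (white), in dry, imbibed and salt seeds. In imbibed seeds red covers 5 of the 10 CYCD, 3 of the 7 KRP, 1 of the 8 CYCB and 1 of the 4 CYCA2 genes, and 6 of the 8 CYCB genes are white.

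All 7 KRP genes, the inhibitors, were tested in every state. The share called, all higher, was 42.9% in imbibed and 14.3% in salt seeds. Of all genes tested 40.8% and 14.0% were called, 21.3% and 6.98% higher. KRP2 (AT3G50630), which restrains CDKA;1 activity in roots and leaves, had 130 implied counts in imbibed ΔDS seeds against 52.8 in imbibed +WT seeds, a log2 fold change of 1.30 ± 0.36 (SE, adjusted p = 0.00142, DESeq2) in the authors' deposited table. In dry seeds it stood at 18.6 counts in ΔDS and 30.9 in +WT, at -0.74 ± 0.43 (log2, SE, adjusted p = 0.404, DESeq2) in the authors' deposited table. The genotype effect was greater in imbibed than in dry seeds by 2.03 ± 0.55 (SE, adjusted p = 0.00261, approximate z test), the other of the 2 genes called for this difference. KRP1 (AT2G23430) and KRP7 (AT1G49620) also had a negative value in dry and a positive one in imbibed seeds and were called in imbibed seeds. For KRP1 there were 252 implied counts in imbibed ΔDS seeds and 154 in imbibed +WT seeds, at 0.71 ± 0.23 (log2, SE, adjusted p = 0.00645, DESeq2) in the authors' deposited table. KRP7 had 110.3 and 67.2, at 0.71 ± 0.28 (log2, SE, adjusted p = 0.0286, DESeq2) in the authors' deposited table. For both the difference from dry seeds missed the threshold, with adjusted p of 0.0551 for KRP1 and 0.0562 for KRP7 (approximate z test), and both passed it when scaled to library totals. In salt seeds none of these 3 inhibitors passed, with 82.7 implied counts in ΔDS and 65.9 in +WT for KRP1, 24.5 and 16.8 for KRP2, and 69.5 and 68.7 for KRP7. Their genotype effects were not called different between salt and imbibed seeds. The adjusted p was 0.524 for KRP1, 0.465 for KRP2 and 0.273 for KRP7 (approximate z test).

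KRP6 (AT3G19150) was the 1 inhibitor of 7 that passed in salt seeds. It had 1080.1 implied counts in salt ΔDS seeds and 838 in salt +WT seeds, or 27.3 and 21.2 per kb, with a log2 fold change of 0.37 ± 0.0906 (SE, adjusted p = 9.17e-04, DESeq2) in the authors' deposited table. Its log2 fold change in imbibed seeds was 0.09 ± 0.13 (SE) in the authors' deposited table, and the difference between salt and imbibed seeds was 0.28 ± 0.16 (SE, adjusted p = 0.263, approximate z test). KRP3 and KRP5 passed in no state. KRP3 had 34.1, 44.5 and 47.1 implied counts in dry, imbibed and salt ΔDS seeds, against 37.5, 42.2 and 41.9 in +WT seeds. KRP5 was at 0.45 ± 0.23 (log2, SE, adjusted p = 0.0992, DESeq2) in imbibed seeds in the authors' deposited table, with 142 implied counts in ΔDS and 104 in +WT. KRP4 had log2 fold changes of -0.12 ± 0.0767, -0.22 ± 0.12 and -0.05 ± 0.089 (SE) in dry, imbibed and salt seeds in the authors' deposited tables, none past the threshold, and the salt sign turns with another scaling. KRP4 shares 926 exon bases with a gene on the opposite strand, whose mean was 8.13 (dry), 484.27 (imbibed) and 97.55 (salt) counts, against 1262, 777 and 837 for KRP4.

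Across the seed states the families differed in level, as a description only. In ΔDS seeds the D-type cyclins summed to 12.9 per kb dry, 67.3 imbibed and 30.9 with salt, and in +WT seeds to 11.9, 53.1 and 29.7. The KRP genes summed to 47.7, 53.4 and 51.9 in ΔDS and to 49.8, 45.1 and 44.7 in +WT. Within the KRP family KRP1 was 16.3 times as high in imbibed as in dry ΔDS seeds and 6.78 times in +WT seeds, while KRP4 was 0.639 and 0.683 times as high. The B-type cyclins summed to 0.835, 9.33 and 9.69 in ΔDS and to 0.772, 2.36 and 1.88 in +WT, and CYCB1;1 alone made up 8.61 and 9.09 of the imbibed and salt sums in ΔDS. The CDKB kinases summed to 0.501, 1.28 and 1.37 in ΔDS and to 0.515, 1.63 and 1.39 in +WT.

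Other genes of the pathway were taken as lists, which were chosen with earlier results of these data known. Their counts stand beside the shares of all genes given above, as a description. In dry seeds 0 genes of these lists passed the authors' DESeq2 threshold apart from AUR2, described with its list, and beside it 1 MYB3R gene had an unadjusted p under 0.05. RBR1 with the E2F and DP factors, which act downstream of the D-type cyclins, had 2 higher and 0 lower of 9 tested in imbibed seeds and the same counts in salt seeds. E2FA, an activator of S phase genes, was called in both, at 1.36 ± 0.28 (adjusted p = 1.76e-05) in imbibed and 1.23 ± 0.41 (log2, SE, adjusted p = 0.0237, DESeq2) in salt seeds in the authors' deposited tables. It had 131 implied counts in imbibed ΔDS seeds and 50.9 in imbibed +WT seeds, and 45.3 against 19.3 in salt seeds. Its partner DPA was called in imbibed seeds at 0.85 ± 0.18 (log2, SE) and RBR1 in salt seeds at 0.28 ± 0.0642 (log2, SE) in the authors' deposited tables. The list of replication licensing genes and PCNA, which load and clamp the replication machinery, had 12 higher and 0 lower of 14 tested in imbibed seeds, where the median log2 fold change was 1.15 in the authors' deposited table. MCM5, a subunit of the replicative helicase, had 536 implied counts in imbibed ΔDS seeds and 274 in imbibed +WT seeds, and PCNA2, the sliding clamp, had 523 and 252. In salt seeds 5 of 13 were higher and 0 lower, where the median log2 fold change was 0.92 in the authors' deposited table, and PCNA2 had 229.5 implied counts in ΔDS and 97.2 in +WT.

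The mitosis and cytokinesis list had 1 higher and 0 lower of 9 tested in imbibed seeds, and 0 of 10 passed the authors' DESeq2 threshold in salt seeds, 0 of them at an unadjusted p under 0.05, with medians of -0.12 and 0.08 (log2) in the authors' deposited tables. The gene called was CENH3, the centromeric histone, at 1.47 ± 0.57 (log2, SE, adjusted p = 0.0267, DESeq2) in the authors' deposited table, with 23.2 implied counts in ΔDS and 8.38 in +WT. In dry seeds the Aurora kinase gene AUR2 was lower, at -0.46 ± 0.11 (log2, SE, adjusted p = 0.00182, DESeq2) in the authors' deposited table, and 0 of the other 7 passed. The MYB3R regulators, which bind the MSA element, had 0 called of 4 in each state in the DESeq2 tables that the authors deposited, with 1, 0 and 0 at an unadjusted p under 0.05. Their medians were -0.08, -0.34 and -0.13 (log2) in dry, imbibed and salt seeds in the authors' deposited tables.

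**Figure D4:**
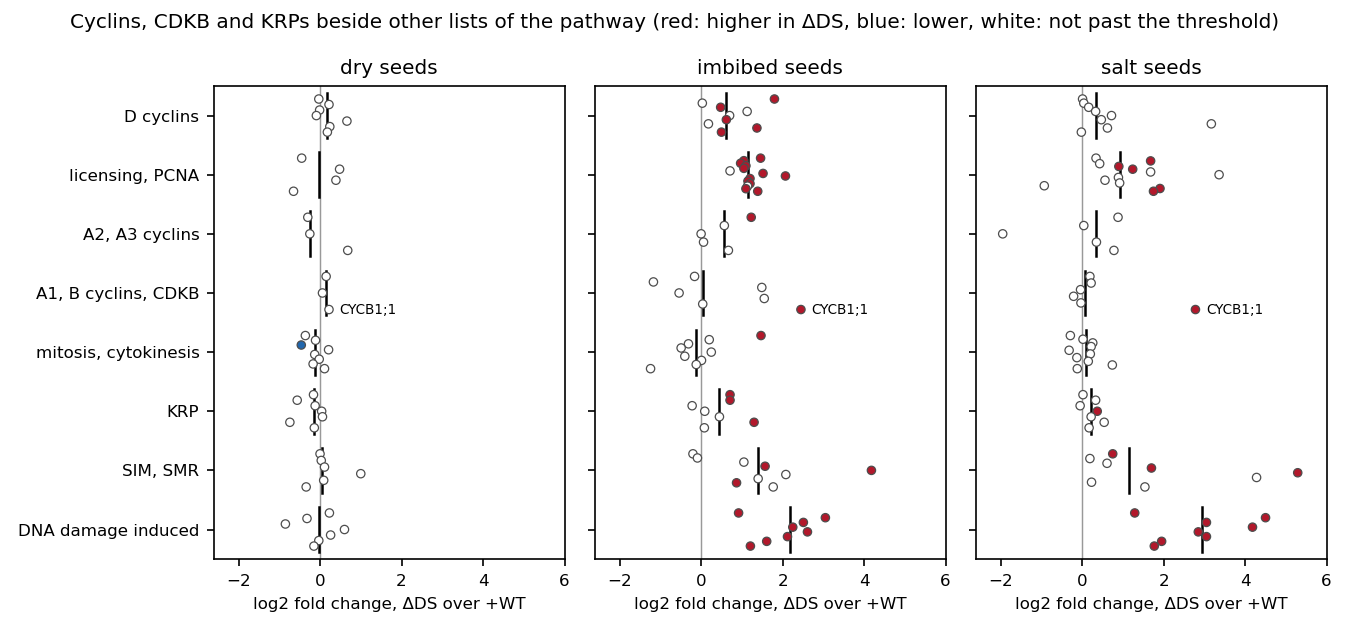
Log2 fold change of ΔDS over +WT of each tested gene in the cyclin, CDKB and KRP families and in 4 lists of the same pathway, in dry, imbibed and salt seeds, with the median of each group as a bar. In imbibed seeds 12 of 14 licensing and PCNA genes and 5 of 9 D cyclins are red, whereas among the A1 and B cyclins and CDKB of the 37 genes only CYCB1;1 is. All 8 genes of the DNA damage list are red in imbibed and in salt seeds. Of all genes tested 21.3% were higher in imbibed and 6.98% in salt seeds. The lists were chosen with earlier results of these data known.

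Among other regulators of CDK activity, the SIM and SMR inhibitors had 3 higher and 0 lower in imbibed seeds of 9 tested and 3 higher and 0 lower of 8 in salt seeds. SMR7, induced by DNA damage, had 289.6 implied counts in imbibed ΔDS seeds and 16 in imbibed +WT seeds, and 356 against 9.10 in salt seeds, at 4.18 ± 0.32 and 5.29 ± 0.33 (log2, SE) in the authors' deposited tables. SMR1 was called in both states and SIM in imbibed seeds, at 1.57 ± 0.26, 1.70 ± 0.32 and 0.87 ± 0.23 (log2, SE) in the authors' deposited tables. SMR5, a further inhibitor of the family induced by DNA damage, had 4473 implied counts in salt ΔDS seeds and 2664 in salt +WT seeds, at 0.75 ± 0.0697 (log2, SE) in the authors' deposited table. This gene passed in salt seeds alone. Dry ΔDS seeds had 14615 implied counts of SMR5 and dry +WT seeds 14612. Imbibed ΔDS seeds had 527 and imbibed +WT seeds 606, at -0.20 ± 0.58 (log2, SE, adjusted p = 0.808, DESeq2) in the authors' deposited table. Of the anaphase promoting complex and its regulators 3 of 12 were higher and 0 lower in imbibed seeds. The first was CCS52A1, an activator that promotes endoreduplication, at 1.38 ± 0.26 (log2, SE, adjusted p = 4.20e-06, DESeq2) in the authors' deposited table. The others were UVI4 and OSD1, inhibitors of the complex, at 12.5 and 7.02 implied counts in ΔDS and 3.34 and 1.04 in +WT. Both lay close to the threshold, at 1.90 ± 0.81 (adjusted p = 0.046) and 2.75 ± 1.19 (log2, SE, adjusted p = 0.05 as rounded, DESeq2) in the authors' deposited table. In salt seeds CCS52B, the mitotic activator, was the 1 lower of 11, at -0.99 ± 0.36 (log2, SE, adjusted p = 0.0441, DESeq2) in the authors' deposited table. Of the CDK partners and CDK-acting kinases CDKD;3 and CYCH;1, parts of the CDK-activating kinase, were the 2 higher of 8 in imbibed seeds, at 0.91 ± 0.32 and 0.40 ± 0.15 (log2, SE) in the authors' deposited table. In salt seeds WEE1, the inhibitory kinase of the replication checkpoint, was the 1 higher of 8, at an implied 5.43 counts in ΔDS and 0.193 in +WT.

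The A and B cyclins outside the 37 had 1 higher of 3 tested in imbibed and in salt seeds, the CYCA1 cyclin CYCA1;2. It had 92.2 implied counts in imbibed ΔDS seeds and 57.6 in imbibed +WT seeds, and 96.6 against 38 in salt seeds. Its log2 fold changes were 0.68 ± 0.26 (adjusted p = 0.0234) and 1.34 ± 0.28 (SE, adjusted p = 2.84e-05, DESeq2) in the authors' deposited tables. The P-type cyclins had 1 higher of 3 in imbibed seeds, CYCP1;1, with 362 and 205, and 0 of 2 passed the authors' DESeq2 threshold in salt seeds, with 0 at an unadjusted p under 0.05. The list of DNA damage induced genes, which leaves out CYCB1;1, had 8 higher of 8 tested in imbibed and in salt seeds. The medians were 2.18 in imbibed and 2.95 in salt seeds (log2) in the authors' deposited tables. In dry seeds 0 of 7 were called in the authors' deposited DESeq2 table, 0 at an unadjusted p under 0.05. Because this list was chosen with earlier results of these data known, its counts describe the list and test nothing. PARP2, an enzyme of DNA repair, had 1185 implied counts in imbibed ΔDS seeds against 208 in imbibed +WT seeds, and 940 against 114 in salt seeds.

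Markers of seed tissues were counted in the same way. Calls in all 3 states came from the seed storage list and from EPR1 and AGL62 of the endosperm list. Of the 10 seed storage genes 8 were lower in dry ΔDS seeds, 10 in imbibed ΔDS seeds and 8 in salt ΔDS seeds, with 0 higher. Of the 6 endosperm genes EPR1 was lower and AGL62 higher in every state, at log2 fold changes of -0.35, -1.14 and -0.49 for EPR1 and 1.81, 6.02 and 6.70 for AGL62 in the authors' deposited tables. The summed level of the list is nearly that of EPR1 alone, and AGL62 stood at 0.484, 0.484 and 0.387 per kb in dry, imbibed and salt ΔDS seeds, against 0.138, 0.00745 and 0.00373 in +WT seeds. The list summed to 13988 per kb in dry ΔDS seeds against 17851 in dry +WT seeds, to 5207 against 11483 in imbibed seeds and to 9427 against 13196 in salt seeds. Both tested seed coat genes, MUM4 and TTG2, were higher in imbibed ΔDS seeds, where the list summed to 8.90 against 5.10. The other 3 of the 5 seed coat genes were listed at 0 there. In dry seeds 0 of 1 and in salt seeds 0 of 2 tested seed coat genes passed the authors' DESeq2 threshold, with 0 and 1 at an unadjusted p under 0.05. Pollen genes had 2 lower of 4 tested in dry seeds, VGDH1 and AGP23, and the list summed to 3.49 in dry ΔDS seeds and 7.03 in dry +WT seeds. The part of these shifts in the cyclin and KRP values was not tested.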

How the data were processed

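RNA-seq of 18 seed samples was used through 3 tables of the authors' comparisons, 1 per seed state, with no values per library. The submitters' processing notes name HISAT2, DESeq2 and the TAIR10 build and give no versions. The read counter and strandedness were not given in the sources used here. Per the file headers the columns are those of DESeq2: the deposited signal column is the mean of size-factor normalised read counts, the deposited log2 fold change and its error are on the log2 scale, the deposited Wald score is their ratio, and the deposited p-value and adjusted p-value come from the authors. The direction is not stated in the headers, and if it ran the other way every sign would turn.

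The 37 genes and all lists were chosen with earlier results of these data known. A count model had been planned for counts per library. As none are given, the authors' adjusted p at 0.05 was used. Implied group means assume 3 libraries on each side. Differences between states were tested with an approximate two-sided z test on the deposited log2 values and errors, with Benjamini-Hochberg adjustment over the genes that were tested in both of the compared tables. All 37 genes are accounted for, those called are described singly, and of each list up to 3 genes with the smallest adjusted p in a comparison may be named. Names, exon lengths, neighbours and the 250-base promoter windows came from RefSeq TAIR10.1, in which 32835 of the 33602 identifiers were found. Alternatives were adjustment over every gene with a p-value, a mean of at least 5 CPM, scaling to library totals derived from the tables, subtraction of the median gene's value, subtraction of a lowess curve over exon length (span 0.3), and a fold of at least 2 (for differences between states, a log2 difference of at least 1). A Wald test within each state and the z test between states, each with its adjustment, were first tested on simulated data. The other steps were not. The software was scipy 1.17.1, statsmodels 0.14.6, pandas 2.3.3 and numpy 2.4.6 in Python 3.11.15. Figures were drawn with matplotlib 3.10.9.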

Additional observations from a re-analysis of the deposited data

Results flagged for a closer look

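The genotype effect on CYCB1;1 was greater in imbibed than in dry seeds by 2.23 on the log2 scale, a difference that passed the z test between states. For the same gene it was greater in salt than in dry seeds by 2.56. For KRP2 the effect was greater in imbibed than in dry seeds by 2.03. For CYCD3;2 the effect differed between salt and imbibed seeds by -0.52.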

How the results depend on the processing

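No paired analysis was possible because the tables hold no values per library. For the same reason leaving out replicates, a replicate block and a second count tool were not run. Of the 10 genes called in imbibed seeds, 5 were called with a mean of at least 5 CPM, which left 9 genes tested (CYCB1;1, CYCD3;2, CYCD3;3, CYCD5;1 and KRP1). With a fold of at least 2 there were also 5, of which CYCB1;1 alone is shared with the first set. Scaling by library totals, which moves every log2 fold change by 0.0788 (dry), 0.185 (imbibed) and 0.158 (salt), called 12 genes in imbibed seeds, adding CYCD3;1 and KRP5. The share of all calls that were higher was then 82.9%, 77.2% and 89.8%, against 48.9%, 52.1% and 50% with the authors' scaling. In salt seeds 1 of the 2 calls, CYCB1;1, had a fold of at least 2. For the effect in imbibed against dry seeds 0 genes were called at 5 CPM, where CYCB1;1 and KRP2 were no longer tested, 3 with adjustment over every gene with a p-value, which adds CYCD4;1, and 4 with library totals, which adds KRP1 and KRP7. For salt against dry seeds 0 were called at 5 CPM, where CYCB1;1 was no longer tested, and 2 with library totals, which adds KRP6. For salt against imbibed seeds 0 had a difference of at least 1. No called value changed sign. Among uncalled log2 fold changes, library totals turned the sign in dry seeds for CYCD1;1 (0.05) and CYCD3;3 (0.07), in imbibed seeds for CYCB2;3 (0.03) and CDKA;1 (0.04), and in salt seeds for CYCD3;2 (0.14), CDKB1;1 (0.13), CDKB2;1 (0.12) and KRP4 (0.11). Removal of the length trend turned that of CYCD3;3 in dry seeds (0.02) and of CYCA2;4 in imbibed seeds (0.00), and centring that of CYCA2;4 (-0.02). Where no change in the genes tested is given, the cause was not tested. Low counts of the mitotic genes limit what could be detected.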
